A study of Mus musculus with 7 samples.

Results

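The 5 casein genes (*Csn1s1*, *Csn2*, *Csn1s2a*, *Csn1s2b* and *Csn3*) and the genes of the major whey proteins of mouse milk (*Wap* and *Lalba*) were examined in RNA-seq counts of whole mammary gland at lactation day 1 (L1). These 7 genes were chosen by name, as the caseins and principal whey proteins, out of 37310 genes in the table, and all 7 were among the 17175 genes tested. The libraries came from C57BL/6 female mice, 3 labelled WT and 4 labelled *Tardbp* KO (hereafter labelled KO). *Tardbp* encodes TDP-43, an RNA-binding protein, and the labelled KO mice carried a floxed *Tardbp* (*Tardbp* flox/flox) with WAP-Cre, while the WT mice carried *Tardbp* wt/wt with the same WAP-Cre. All mice of both groups therefore carried the Cre transgene, which removes exons 2 and 3 of a floxed *Tardbp*, and the promoter that drives it in luminal epithelial cells from mid pregnancy is that of *Wap*, one of the 7 genes. Cells that do not use this promoter keep their *Tardbp*, and the age of the mice was not given in the sources used here.

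Caseins are the phosphoproteins that carry calcium phosphate in milk as micelles, with κ-casein (*Csn3*) at the micelle surface. Their genes lie side by side in one cluster and are transcribed in luminal alveolar cells under prolactin, glucocorticoid and insulin, with STAT5 among the factors that bind their promoters. Whey acidic protein (*Wap*) is the main whey protein of rodent milk, and α-lactalbumin (*Lalba*) is the subunit that makes β-1,4-galactosyltransferase produce lactose.

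In the NCBIM37 annotation used for counting, the casein cluster covers 266442 bases of chromosome 5, from *Csn1s1* (88095249 to 88111598, plus strand) through *Csn2* (88121647 to 88128446, minus strand), *Csn1s2a* (88203592 to 88217822, plus strand) and *Csn1s2b* (88237107 to 88253451, plus strand) to *Csn3* (88354604 to 88361690, plus strand). *Wap* lies on chromosome 11 at 6531490 to 6538652 on the minus strand, and *Lalba* on chromosome 15 at 98310831 to 98313114 on the minus strand. No exon base of the 7 genes is shared with another gene of this annotation.

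Promoter sequences from RefSeq (GRCm38.p6, another build than the counts) were matched by symbol for 5 of the 7 genes, with *Csn1s2b* and *Csn3* not matched. The 250 bases before the start of transcription are shown for *Csn2* and *Csn1s1*, the genes of β-casein and αs1-casein, and for *Wap*, whose promoter drives the Cre transgene. Capitals mark the motif TTCNNNGAA, the letters of a STAT binding element, which reads the same on both strands. The windows lie at chr5:87699426-87699675 on the minus strand for *Csn2*, chr5:87665958-87666207 on the plus strand for *Csn1s1* and chr11:6638650-6638899 on the minus strand for *Wap*.
Csn2: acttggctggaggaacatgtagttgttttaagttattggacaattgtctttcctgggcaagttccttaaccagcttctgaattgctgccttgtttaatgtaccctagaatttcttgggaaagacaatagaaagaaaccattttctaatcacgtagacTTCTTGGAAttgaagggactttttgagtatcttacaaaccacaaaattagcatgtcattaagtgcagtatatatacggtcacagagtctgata
Csn1s1: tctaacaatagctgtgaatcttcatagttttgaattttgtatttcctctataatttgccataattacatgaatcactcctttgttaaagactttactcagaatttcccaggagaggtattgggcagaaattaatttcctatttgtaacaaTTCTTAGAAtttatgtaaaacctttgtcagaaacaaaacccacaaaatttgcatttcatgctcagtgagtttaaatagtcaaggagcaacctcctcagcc
Wap: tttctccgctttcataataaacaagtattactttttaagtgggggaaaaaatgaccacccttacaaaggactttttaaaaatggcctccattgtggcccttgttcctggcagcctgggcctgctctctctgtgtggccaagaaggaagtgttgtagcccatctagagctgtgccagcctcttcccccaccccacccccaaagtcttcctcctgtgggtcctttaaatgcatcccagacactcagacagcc

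The motif TTCNNNGAA was found at positions -93 to -85 before the start in *Csn2* and at -100 to -92 in *Csn1s1*, and not in the windows of *Csn1s2a*, *Wap* and *Lalba*. Of all 32851 RefSeq promoter windows of the same length, 7.02% hold it. The letters TTNNGNAA, as a C/EBP element, searched on both strands, occur once in *Csn1s1* and in *Wap*, 2 times in *Csn2* and in *Csn1s2a*, and in 36.8% of all windows, and those of *Csn1s1* (-90 to -83) begin 2 bases after its STAT letters end. TTGGC, part of the nuclear factor I element, searched on both strands, is in the windows of *Csn2*, *Wap* and *Lalba* and in 41.5% of all windows. No window of the 5 genes holds TATAAA, searched on both strands and present in 12.4% of all windows. These matches describe letters in the windows, and binding was not measured.

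TDP-43 is known to bind UG repeats in RNA, so runs of at least 3 UG dinucleotides (TG in DNA letters) were counted in the longest annotated coding transcript of each gene. *Csn2*, *Csn3*, *Wap* and *Lalba* hold none, as do 28.5% of the 15112 tested genes with a coding transcript. *Csn1s1* holds 2 runs, *Csn1s2a* 1 and *Csn1s2b* 3, and the median gene holds 1. The longest run of each of these 3 genes is shown with 8 bases on each side, the run in capitals, at transcript positions 1307 to 1316 for *Csn1s2b*, 798 to 803 for *Csn1s2a* and 978 to 983 for *Csn1s1*, which has a second run of the same length.
Csn1s2b: tgtatattTGTGTGTGTGtattttgt
Csn1s2a: gattgagtTGTGTGttccaact
Csn1s1: aaaaccaaTGTGTGgtgagata

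Library totals lay between 36007737 and 42811337 counts. *Tardbp* itself, counted over all its exons and in all cells of the gland, averaged 187 CPM (SD 32.6, n = 3) for WT and 188 CPM (SD 28.2, n = 4) for labelled KO, with a log2 fold change of 0.01 ± 0.18 (SE) and an adjusted p of 0.982 in edgeR's quasi-likelihood test. The counts of *Tardbp* thus do not check the label, and directions below are those between labelled groups. The study followed the loss of TDP-43 in these mice by other assays, which were not analysed here. By qRT-PCR at stages that include L1, it reports several milk protein genes as unaffected by *Tardbp* loss. The study lists primers for α-casein, β-casein and *Wap*, which belong to the set examined here. Its text and legend do not name which genes were measured. It also reports no difference in the protein composition of milk, collected after L1. Those measures differ from the counts below and were not compared with them. Lane 4 is the one lane with libraries of both labels (WT replicate 2, and labelled KO replicates 3 and 4). The labels do not say that the libraries came from separate mice, while the study gives as many mice for each group as there are libraries. The p-values measure the spread between these samples.

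The 7 genes took 34.0%, 26.3% and 26.4% of all counts in WT replicates 1 to 3, and 21.8%, 14.8%, 12.7% and 19.3% in labelled KO replicates 1 to 4. Every library labelled KO lay below every WT library. Mean shares were 28.9% ± 4.41 (SD, n = 3) and 17.1% ± 4.11 (SD, n = 4), a difference of -11.7 percentage points. As a sum over chosen genes it was given no test. Within the sum of the 7 genes, *Csn2* made up 33.1% to 40.6% in WT and 27.7% to 44.8% in labelled KO libraries. Counting error was small beside this spread, since the widest 95% Wilson interval of a share reached 0.0155 percentage points to each side, for counting error only and with the mates of a read pair counted separately.

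**Figure D1:**
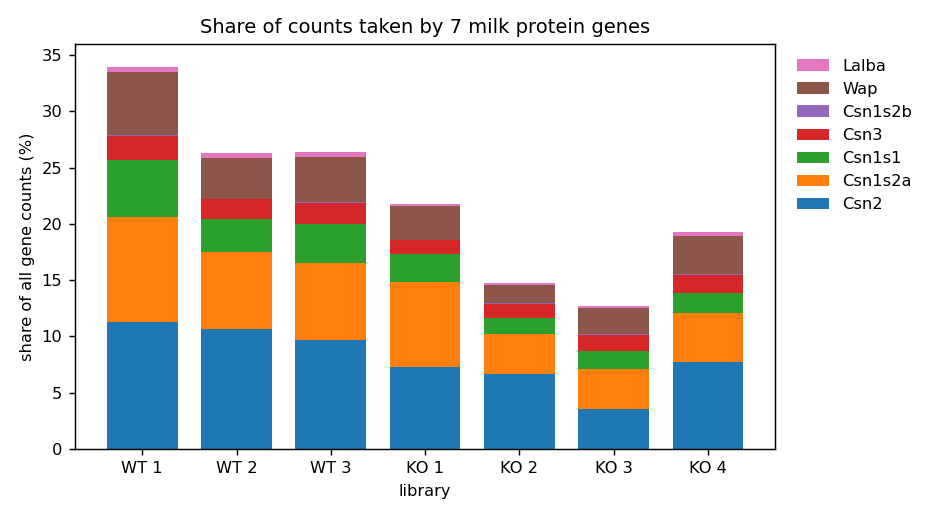
Stacked bars show the share of all gene counts (vertical axis, percent, from 0) taken by each of the 7 genes in each library (horizontal axis, KO stands for labelled KO). The WT bars end between 26.3% and 34.0% and the bars of libraries labelled KO between 12.7% and 21.8%, and *Csn2* and *Csn1s2a* fill most of each bar.

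*Csn2*, the gene of β-casein, took 11.2%, 10.7% and 9.65% of the counts in WT libraries and 7.31%, 6.62%, 3.53% and 7.75% in libraries labelled KO (2-sided exact permutation p = 0.0286, the smallest that 3 against 4 libraries allow). *Csn1s1*, the gene of αs1-casein, took 5.10%, 2.90% and 3.50% in WT and 2.45%, 1.44%, 1.61% and 1.74% in labelled KO libraries (exact permutation p = 0.0286). For *Lalba* the shares were 0.425%, 0.456% and 0.468% in WT and 0.118%, 0.201%, 0.229% and 0.301% in labelled KO libraries (exact permutation p = 0.0286). The groups did not overlap for any of these 3 genes. Nor did they overlap for *Wap* (3.57% to 5.66% against 1.63% to 3.44%), *Csn3* (1.78% to 2.11% against 1.24% to 1.64%) and *Csn1s2b* (0.0587% to 0.0746% against 0.0190% to 0.0461%), each with an exact permutation p of 0.0571. *Csn1s2a*, one of the pair of αs2-casein genes, was the exception, because labelled KO replicate 1 at 7.54% lay above WT replicates 2 and 3 at 6.83% and 6.88% (exact permutation p = 0.114). The other libraries labelled KO held 3.56%, 3.53% and 4.34% of their counts in *Csn1s2a*. How many of all genes do not overlap by share of counts was not determined.

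Ordered by counts among all 37310 genes, *Csn2* was first and *Csn1s2a* second in all libraries except labelled KO replicates 1 and 3, where the order of these genes was reversed. *Wap* was at place 3 and *Csn1s1* at place 4 in all 7 libraries, and *Csn3* was at place 5 or 6. The minor genes moved through more places than the major ones, but places do not measure fold change. The edgeR log2 fold change of *Csn1s1*, which kept its place, was -1.46, beside -1.42 for *Lalba* and -1.46 for *Csn1s2b*. *Lalba* stood at places 11, 12 and 11 in WT libraries and 45, 31, 26 and 22 in labelled KO replicates 1 to 4. *Csn1s2b* stood at places 73, 119 and 132 in WT libraries and 661, 451, 362 and 205 in libraries labelled KO.

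Levels were then compared as TMM-normalised CPM (CPM are counts scaled by library size, here after edgeR's correction for library composition). *Csn2* stood at 152249, 125468 and 113927 CPM in WT libraries and at 71320, 62075, 30945 and 83401 CPM in libraries labelled KO. Labelled KO replicate 3 was the lowest, and all 4 lay under the lowest WT library. The log2 fold change was -1.08 ± 0.52 (SE), with an adjusted p of 0.274 in edgeR's quasi-likelihood test. *Csn1s1* stood at 69035, 34143 and 41348 CPM against 23894, 13504, 14114 and 18703 CPM. Here WT replicate 1 was far above the other WT libraries, and the groups did not overlap. Its log2 fold change was -1.46 ± 0.43 (SE; edgeR adjusted p = 0.117).

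*Csn1s2a* stood at 126789, 80317 and 81260 CPM in WT libraries and at 73548, 33345, 30978 and 46745 CPM in libraries labelled KO, with a log2 fold change of -1.06 ± 0.51 (SE; edgeR adjusted p = 0.268). Labelled KO replicate 1 came close to the WT libraries. *Csn1s2b*, the paralogue beside it with far fewer counts, stood at 1010, 757 and 693 CPM against 185, 244, 270 and 496 CPM (log2 fold change -1.46 ± 0.33 SE; edgeR adjusted p = 0.0797). For this gene labelled KO replicate 1 was the lowest library, the opposite end from its place in *Csn1s2a*. Reads that map to both paralogues were not counted, so the level of each is uncertain to that extent.

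*Csn3* was the casein with the smallest difference, at 28506, 20962 and 21982 CPM in WT libraries and 12097, 12185, 12971 and 17703 CPM in libraries labelled KO. Its log2 fold change was -0.79 ± 0.34 (SE; edgeR adjusted p = 0.217). Labelled KO replicate 4 stood apart from the other 3, which ran from 12097 to 12971 CPM.

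Among the whey proteins, *Wap* stood at 76629, 42049 and 46917 CPM in WT libraries and at 29995, 15327, 20337 and 37025 CPM in libraries labelled KO. The group means differed by -1.10 ± 0.47 (SE) on the log2 scale (edgeR adjusted p = 0.218), and labelled KO replicate 4 came closest to the lowest WT library. *Lalba* was the steadiest of the 7 genes across WT libraries, at 5758, 5366 and 5526 CPM (coefficient of variation 3.56%). Libraries labelled KO held 1148, 1889, 2010 and 3244 CPM of it, and a coefficient of variation of 41.9%. The log2 fold change of *Lalba* was -1.42 ± 0.34 (SE; edgeR adjusted p = 0.0858).

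**Figure D2:**
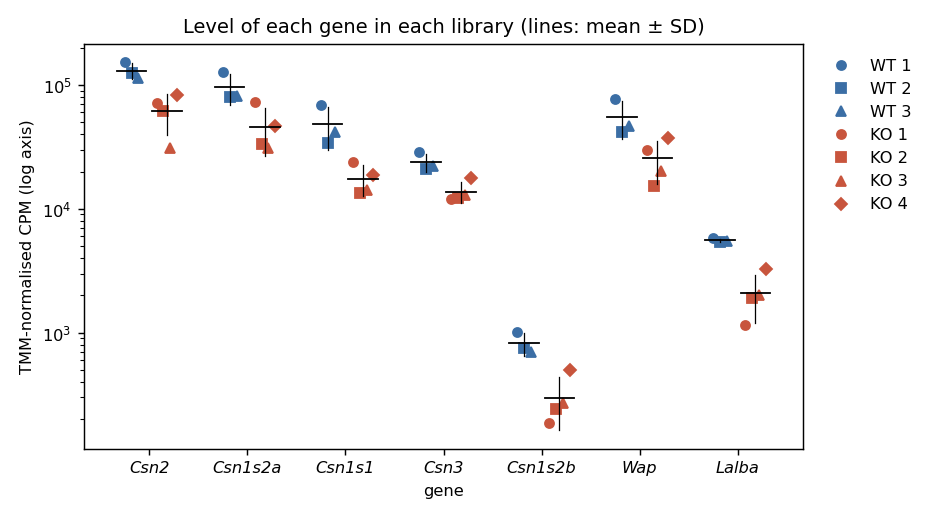
Points give the TMM-normalised CPM (vertical log axis) of each gene (horizontal axis) in each library, blue for WT and red for labelled KO, with the group mean as a horizontal line and the SD as a vertical line. All red points of a gene lie under all its blue points, and the blue points of *Lalba* (5366 to 5758 CPM) lie closest together.

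In edgeR's quasi-likelihood test 0 of the 7 genes passed the limits that the study set, nor did any of the 17175 genes tested (0%). These limits were an adjusted p below 0.01 together with a log2 fold change beyond 1 in either direction. The study used an older edgeR, does not name its test and reports differentially expressed genes. The count of 0 is therefore not the outcome of the study's own run. At an unadjusted p under 0.05, 3674 genes passed, and 5 of the 7 (*Csn1s1*, *Csn1s2b*, *Csn3*, *Wap* and *Lalba*) were among the 1838 lower in libraries labelled KO, which are 10.7% of the genes tested. edgeR's exact test called 426 genes, of which 247 (1.44%) were lower, and DESeq2's Wald test 568, of which 280 (1.63%) were lower. Both lists of lower genes held *Csn1s1*, *Csn1s2b* and *Lalba*. Their adjusted p lay between 0.00070 and 0.0013 in edgeR's exact test and between 0.00033 and 0.00099 in DESeq2. All 7 genes had every labelled KO library below every WT library in CPM, as had 9.62% of the genes tested. The exact permutation test of log2 CPM gave *Csn1s1* p = 0.0286 and each of the other 6 genes p = 0.0571. The median log2 fold change was -1.10 over the 7 genes and 0.05 over all genes tested.

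Because the 7 genes fill up to 34.0% of a library, they also enter the factors by which libraries are scaled, and levels were computed again with these genes left out of scaling. With all 7 left out of both library size and TMM, the log2 fold changes moved by less than 0.01 (*Csn1s1* -1.46, *Csn2* -1.08, *Csn3* -0.79). With library size alone as the scale, the median of all genes shifted to 0.42, and to 0.19 when the 7 genes were left out of the library size. Scaling to the geometric mean of 7 luminal epithelium markers shifted it to -0.50. Relative to the median of all genes, the change of *Csn1s1* lay between -1.49 and -1.60 under these scalings and TMM, that of *Csn1s2b* between -1.51 and -1.62, and that of *Lalba* between -1.47 and -1.55. *Csn2* lay between -1.13 and -1.18, *Csn1s2a* between -1.10 and -1.17, *Wap* between -1.15 and -1.28, and *Csn3* between -0.84 and -0.92. *Csn1s1*, *Csn1s2b* and *Lalba* had the largest differences and *Csn3* the smallest of the 7 under each of the 5 scalings. A scaling shifts all genes of a library alike, so the scalings cannot test this order. It did depend on the libraries used. Without labelled KO replicate 1 and with TMM, *Csn1s2a* (-1.38) differed more than *Csn1s2b* (-1.29) and *Lalba* (-1.22).

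The groups stayed apart under each of these scalings for 6 genes. The share of all genes tested with every labelled KO library below every WT library was computed with TMM only (9.62%). *Csn1s2a* was the exception under both scalings without a TMM factor or markers. With the 7 genes left out of the library size and no TMM factor, labelled KO replicate 1 held *Csn1s2a* at 105725 CPM, above WT replicates 2 and 3 at 101586 and 102390 (exact permutation p = 0.114). On the same scale *Csn2* stood at 185689, 158692 and 143551 CPM in WT libraries and 102523, 84740, 44051 and 105420 in libraries labelled KO (exact permutation p = 0.0286). With luminal markers as the scale, edgeR's adjusted p of the 7 genes lay between 0.0158 and 0.0378, under 0.05 but not under 0.01. On that scale many other genes moved the same way. Of all 17175 genes tested, 5606 were lower in labelled KO libraries at an unadjusted p under 0.05 in edgeR's quasi-likelihood test.

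**Figure D3:**
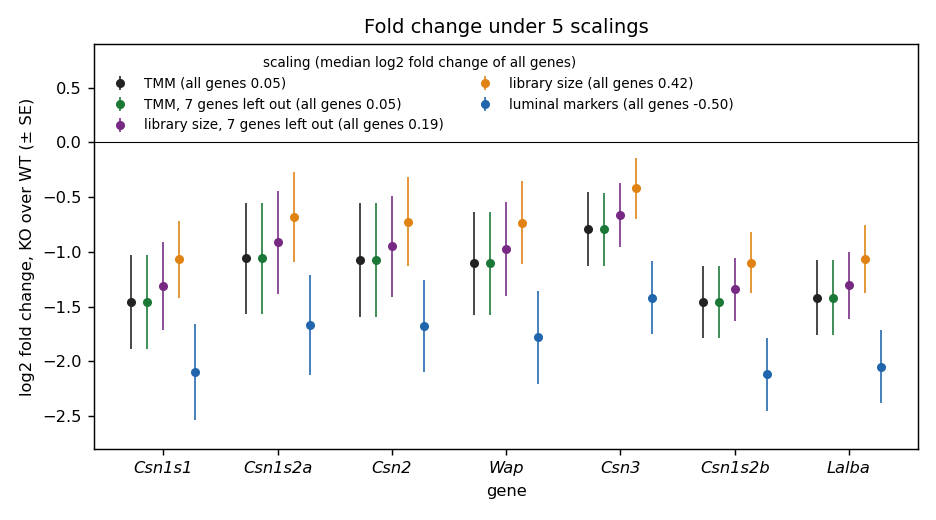
Points give the log2 fold change of labelled KO over WT (vertical axis, bars ± SE) for each gene (horizontal axis) under 5 scalings, with the median of all genes under each scaling in the key. All points lie below 0, the luminal marker scale gives the lowest values (down to -2.12 for *Csn1s2b*), and the TMM values with and without the 7 genes coincide.

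The luminal epithelium markers *Krt8*, *Krt18*, *Krt19*, *Epcam*, *Cdh1*, *Cldn3* and *Cldn7*, of the cells that make milk, all had a positive log2 fold change, 3 of them at an unadjusted p under 0.05 and 0 at an adjusted p under 0.05 in edgeR's quasi-likelihood test. Of all 17175 genes tested, 9331 had a positive log2 fold change, 1836 of them at an unadjusted p under 0.05. The summed level of the luminal markers was 1714 to 2680 CPM in WT and 2641 to 3628 CPM in labelled KO libraries, and none was at 0. In a whole gland, fewer cells of a type and less RNA per cell cannot be told apart. The 10 lymphocyte markers were also all higher in libraries labelled KO, each at an unadjusted p under 0.05 and 0 at an adjusted p under 0.05, with sums of 41.4 to 58.4 CPM in WT and 73.0 to 612 CPM in labelled KO libraries. Their part in the levels of the 7 genes was not tested. Labelled KO replicate 2, the library with the sum of 73.0 CPM, had the 7 genes at a median of -1.55 log2 units against the WT mean. The other libraries labelled KO had medians of -0.95, -1.58 and -0.71.

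The other marker lists were read the same way. Myeloid markers were higher in 6 of 6 (sums of 376 to 1496 CPM in WT and 1068 to 2626 CPM in labelled KO libraries) and adipocyte markers in 5 of 7 (2532 to 3545 and 2548 to 5077 CPM), with 0 and 1 gene at an unadjusted p under 0.05. Of the markers of myoepithelium 5 of 7 were lower (sums of 1039 to 1752 and 924 to 2674 CPM), of endothelium 4 of 5 (276 to 421 and 219 to 422 CPM) and of fibroblasts 4 of 5 (939 to 2679 and 656 to 2858 CPM), 0 of them at an unadjusted p under 0.05 in edgeR's quasi-likelihood test. Skeletal muscle markers reached a sum of 3.50 CPM at most, and 2 of the 3 tested had a positive log2 fold change. By the difference of mean log2 CPM, the direction of several of these lists turned with the scaling, since with library size alone 5 of 5 endothelium, 5 of 5 fibroblast and 4 of 7 myoepithelium markers were higher in labelled KO libraries, and scaled to luminal markers 6 of 7 adipocyte markers were lower. The 10 lymphocyte markers were higher and the 7 milk protein genes lower under each of 7 scalings.

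Within lane 4, the log2 differences of the labelled KO replicates 3 and 4 from WT replicate 2 were -1.06 for *Csn1s1*, -1.13 for *Csn2*, -1.05 for *Csn1s2a*, -0.98 for *Csn1s2b*, -0.45 for *Csn3*, -0.55 for *Wap* and -1.03 for *Lalba*, with no test. All were negative, as over all lanes. In proportion to the value over all libraries, those of *Wap* (-1.10 over all libraries) and *Csn3* (-0.79) were the most reduced within the lane. Lane 4 does not hold WT replicate 1, the highest WT library in both genes. With only WT replicate 1 left out, the log2 fold change was -0.79 for *Wap* and -0.64 for *Csn3*. What part of the reduction goes with the lane was not tested. Libraries outside lane 4 share no lane across labels, so that lane and label cannot be told apart there.

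The profile over the 7 genes differed between the libraries labelled KO. Replicate 1 stood at -0.35 log2 units against the WT mean in *Csn1s2a* but at -2.27 in *Lalba* and -2.13 in *Csn1s2b*. Replicate 2 was lowest in *Wap* (-1.80) and replicate 3 in *Csn2* (-2.07), and both were nearest to WT in *Csn3* (-0.95 and -0.86). Replicate 4 was the nearest to WT in 5 of the 7 genes, with *Csn3* at -0.41 and *Csn1s1* at -1.30. In WT libraries the widest departures were those of *Csn1s1*, from -0.43 to 0.59, and the narrowest those of *Lalba*, from -0.05 to 0.05.

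**Figure D4:**
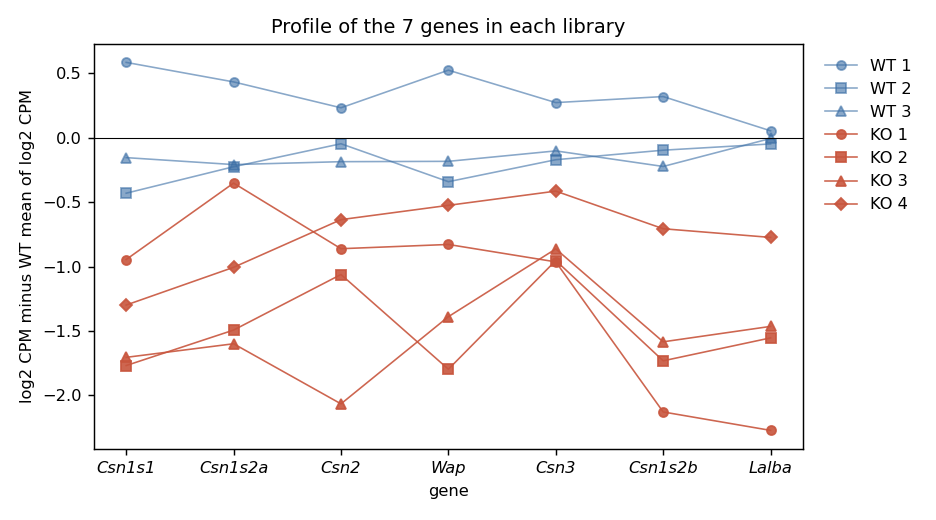
Each line joins the values of one library over the 7 genes (horizontal axis) as log2 CPM minus the WT mean of log2 CPM (vertical axis), blue for WT and red for labelled KO. WT lines lie between -0.43 and 0.59 and labelled KO lines between -2.27 and -0.35, and the line of labelled KO replicate 1 runs from the highest red point in *Csn1s2a* to the lowest in *Lalba*.

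Ratios between the genes within a library do not depend on any scaling, and 13 were compared (10 pairs of caseins, *Wap* and *Lalba* each to the summed caseins, and *Wap* to *Lalba*). By the exact permutation test of log2 ratios 0 of the 13 had an unadjusted p under 0.05, and the lowest adjusted p was 0.495. The design cannot give an unadjusted p under 0.0286, so a p above the threshold does not show that a ratio was equal in the groups. The groups did not overlap in 1 ratio, that of *Csn1s2b* to *Csn3*. It was 0.0354, 0.0361 and 0.0315 in WT libraries and 0.0153, 0.0200, 0.0208 and 0.0280 in libraries labelled KO, a log2 difference of -0.74 ± 0.19 (SE; exact permutation p = 0.0571, adjusted p = 0.495). Without labelled KO replicate 1 the difference was -0.60.

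The ratio of *Csn2* to *Csn1s2a*, the most abundant pair, was 1.20, 1.56 and 1.402 in WT libraries and 0.970, 1.86, 0.999 and 1.78 in libraries labelled KO. The labelled KO libraries lay on both sides of the WT range, and the log2 difference was -0.04 ± 0.28 (SE; exact permutation p = 0.886). *Csn1s1* to *Csn3* was 2.42, 1.63 and 1.88 in WT and 1.98, 1.11, 1.09 and 1.06 in labelled KO libraries. Labelled KO replicate 1 lay within the WT range and the other 3 below it, with a log2 difference of -0.63 ± 0.27 (SE; exact permutation p = 0.114), or -0.85 without that library. *Csn1s2a* to *Csn3* was 4.45, 3.83 and 3.70 in WT libraries and 6.08, 2.74, 2.39 and 2.64 in libraries labelled KO, with labelled KO replicate 1 above the WT range and the other 3 below it. Its log2 difference of -0.31 ± 0.32 (SE; exact permutation p = 0.486) became -0.62 without labelled KO replicate 1.

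The paralogues *Csn1s2a* and *Csn1s2b* stood at 126, 106 and 117 to 1 in WT libraries and at 398, 137, 115 and 94.3 to 1 in libraries labelled KO. Only labelled KO replicate 1 was far from the WT range, and the log2 difference of 0.43 ± 0.47 (SE; exact permutation p = 0.743) became -0.03 without it.

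*Wap* to the summed caseins was 0.203, 0.161 and 0.181 in WT libraries and 0.166, 0.126, 0.228 and 0.222 in libraries labelled KO, a log2 difference of -0.00 ± 0.22 (SE; exact permutation p = 0.971). *Lalba* to the summed caseins was 0.0153, 0.0205 and 0.0213 in WT and 0.00634, 0.0156, 0.0225 and 0.0194 in labelled KO libraries. Its log2 difference of -0.38 ± 0.44 (SE; exact permutation p = 0.657) became 0.01 without labelled KO replicate 1. The remaining 6 ratios overlapped between the groups, with exact permutation p between 0.114 and 0.886. Within lane 4 the log2 difference of *Csn2* to *Csn3* was -0.84, beyond the -0.36 over all libraries, which became -0.08 without labelled KO replicate 3, one of the libraries of that lane. In the same lane that of *Wap* to the summed caseins was 0.48.

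**Figure D5:**
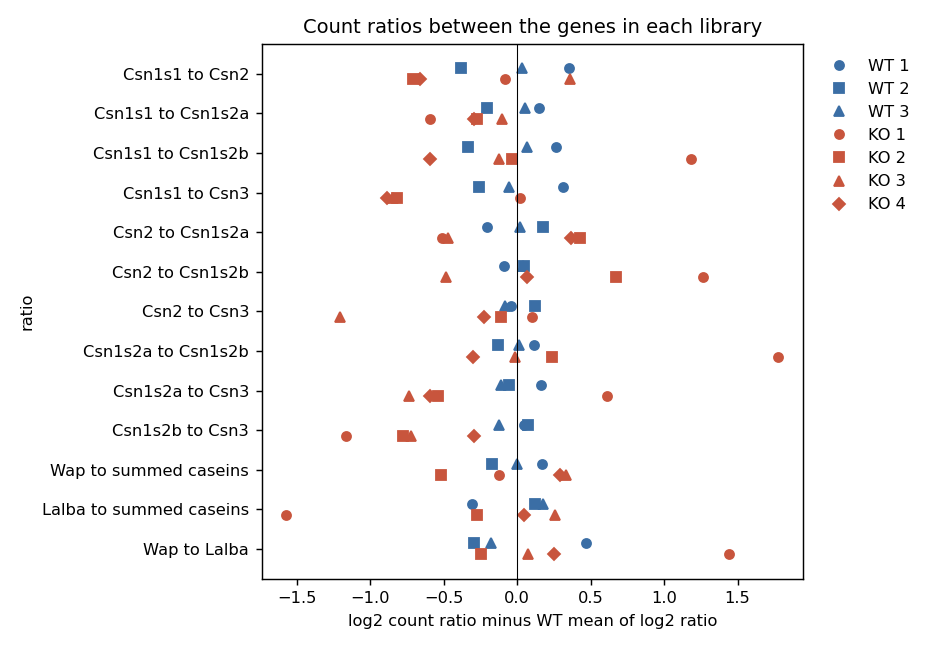
Points give the log2 count ratio of each library minus the WT mean (horizontal axis) for 13 ratios (vertical axis), blue for WT and red for labelled KO. Red and blue points overlap in all ratios except *Csn1s2b* to *Csn3*, and labelled KO replicate 1 (red circle) is the farthest red point to the right in *Csn1s2a* to *Csn1s2b*.

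Levels of different genes can be set side by side only per length. Per kilobase of the exon length in the table, the order in WT libraries was *Csn2* (116353 ± 17522 CPM per kb, SD, n = 3), *Csn1s2a* (104481 ± 28872), *Csn1s1* (34046 ± 13018), *Wap* (19884 ± 6743), *Lalba* (7571 ± 269), *Csn3* (5736 ± 986) and *Csn1s2b* (369 ± 75.4). The ranges of *Csn2* and *Csn1s2a* overlapped and their order differed between WT libraries. The ranges of *Csn1s1* and *Wap* overlapped too, but within each of the 3 WT libraries *Csn1s1* was the higher. In libraries labelled KO the first 4 places were the same, with *Csn3* (3309 ± 644, SD, n = 4) above *Lalba* (2828 ± 1185), in overlapping ranges and with *Csn3* the higher in 3 of the 4 libraries. The table's exon length joins all transcripts, and for *Csn3* (4152 bases), *Wap* (2776) and *Csn1s2b* (2223) it is far longer than the shortest coding transcript (991, 551 and 745 bases). With that shorter length, chosen after the data were seen, *Wap* (100178 ± 33972 CPM per kb in WT libraries) took place 3 and *Csn3* (24033 ± 4130) passed *Lalba*.

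Around the casein cluster, 17 other genes of the table lie between 300 kb before *Csn1s1* and 300 kb after *Csn3*, and 10 of them had no count in any library. Only *Sult1d1*, a sulfotransferase gene, and *Odam*, an ameloblast-associated gene between *Csn1s2b* and *Csn3*, passed the filter on low counts. *Sult1d1* had 119, 72 and 143 counts in WT and 31, 90, 97 and 61 in labelled KO libraries (log2 fold change -1.15 ± 0.39 SE; edgeR adjusted p = 0.148). *Odam* had 16, 36 and 58 counts against 5, 17, 41 and 10 (log2 fold change -1.45 ± 0.62 SE; edgeR adjusted p = 0.217). The remaining 5 (*Sult1b1*, *Sult1e1*, *4930432K09Rik*, *Gm7337* and *BC051076*) had at most 10 counts in a library, beside up to 4211614 for *Csn2*.

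Of 15 other milk protein genes, 11 had a negative log2 fold change, 6 of them at an unadjusted p under 0.05 in edgeR's quasi-likelihood test. None of the 4 positive ones reached it, and no adjusted p of this list was below 0.05. Their median log2 fold change was -0.46, against -1.10 for the 7 genes and 0.05 for all genes tested. *Glycam1*, a mucin-like milk protein, had the most counts of the 15, with group means above those of *Csn3* and *Csn1s2b*. It averaged 38968 CPM (SD 16117, n = 3) for WT and 14520 CPM (SD 7320, n = 4) for labelled KO (log2 fold change -1.42 ± 0.51 SE; edgeR adjusted p = 0.162). *Spp1* (osteopontin) had a log2 fold change of -0.63 ± 0.46 (SE), and *Mfge8*, a protein of the milk fat globule, one of -0.18 ± 0.32 (SE), and both overlapped between the groups.

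Genes of the secretory pathway, which handles caseins and other proteins after translation, were examined next. All 10 genes listed for this pathway had a negative log2 fold change, 7 at an unadjusted p under 0.05 and 0 at an adjusted p under 0.05 in edgeR's quasi-likelihood test. Their median was -0.60 against 0.05 for all genes tested. The list covers phosphorylation, glycosylation and folding, and also holds *Golm1*, a Golgi membrane gene. *Galnt2* was close to 0, averaging 0.50 CPM for WT and 0.30 CPM for labelled KO. Of all 17175 genes tested, 7844 had a negative log2 fold change, 1838 of them at an unadjusted p under 0.05. By mean log2 CPM all 10 were lower under each of 7 scalings. *B4galt1*, the galactosyltransferase that α-lactalbumin binds, averaged 1396 CPM (SD 248, n = 3) for WT and 542 CPM (SD 181, n = 4) for labelled KO (log2 fold change -1.36 ± 0.28 SE; edgeR adjusted p = 0.0753), close to the -1.42 of *Lalba*. *Pdia3*, a disulfide isomerase of the endoplasmic reticulum, had a log2 fold change of -0.45 ± 0.24 (SE), and *Fam20a*, a partner of the casein kinase *Fam20c*, one of -0.62 ± 0.33 (SE). *Fam20c*, named after its values had been seen, had one of -0.96 ± 0.30 (SE; edgeR adjusted p = 0.126).

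Regulators of lactogenic transcription did not share one direction. Of 13 genes 8 had a negative log2 fold change, 4 of them at an unadjusted p under 0.05, and 5 a positive one, 2 of them at an unadjusted p under 0.05 in edgeR's quasi-likelihood test. No adjusted p of this list was below 0.05, and the median was -0.12. With library size alone 9 of the 13 were higher by mean log2 CPM, and scaled to luminal markers 12 were lower. *Elf5*, a transcription factor of alveolar cells, had a log2 fold change of -0.59 ± 0.25 (SE), *Stat5a*, the factor of the prolactin signal, one of -0.55 ± 0.23 (SE), and *Nfib*, a nuclear factor I gene, one of -0.11 ± 0.16 (SE). *Prlr*, the prolactin receptor, named after its values had been seen, had one of -0.70 ± 0.24 (SE; edgeR adjusted p = 0.154). In the other direction, *Igf1r* had 0.95 ± 0.31 (SE; edgeR adjusted p = 0.140) and *Jak2* 0.44 ± 0.18 (SE; edgeR adjusted p = 0.201). These were also named after their values had been seen.

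The genes whose levels over the 7 libraries were most like the mean log2 CPM of the 7 milk protein genes were *Trabd*, *Ubqln4*, *Mfsd10*, *Agpat1* and *snoU83B*, with Pearson r from 0.993 to 0.995. For *Csn2* alone they were *Fpgs*, *Vegfa*, *4930404N11Rik*, *Cog8* and *Trf*, with r from 0.982 to 0.989. These r are the highest of 17175 genes over libraries that fall into 2 labelled groups, and are given as a description. *Trf*, the gene of transferrin, which is secreted into milk, averaged 2246 CPM (SD 304, n = 3) for WT and 1160 CPM (SD 463, n = 4) for labelled KO. The same values of *Agpat1*, an enzyme gene of glycerolipid synthesis, were 176 CPM (SD 18.7) and 91.4 CPM (SD 19.4).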

How the data were processed

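RNA-seq of mammary glands gave 1 table of raw counts for 7 libraries (3 WT, 4 labelled *Tardbp* KO). Per the file headers, the authors made the deposited counts with featureCounts on exons of 37310 genes (NCBIM37, mm9), with no option for strand, pairs or multimapping reads, so mates were counted separately and reads mapped to several places or genes were left out. The submitters' processing notes name STAR 2.5.2a, while the study's methods name another version. A library named in the header without a column was not analysed here.

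Mitochondrial (37) and ribosomal (580) genes were removed, as in the study's methods, and the 17175 genes reaching 5 counts in 4 or more libraries were tested with edgeR 4.0.16 in R 4.3.3 (TMM, quasi-likelihood, genotype only, Benjamini-Hochberg over all genes). Shares used all counts. Single values were tested with a 2-sided exact permutation test over 35 splits, on log2 of CPM plus 1 for levels (scipy 1.17.1). Scripts were tested on simulated data. Alternatives were other scalings, filters, tests (DESeq2 1.42.0) and thresholds, a fit blocked by replicate number, fits without each library in turn, and lane 4. Genes named beside the 7 were Tardbp, genes near the cluster, the 3 of each list with the most counts, any list gene with an adjusted p under 0.05 (there was none), and the 5 most alike by r. Outside this rule, *Fam20c*, *Golm1*, *Galnt2*, *Prlr*, *Igf1r* and *Jak2* were named after their values had been seen. Where 2 genes carry 1 symbol (*Trf*, *Wfdc3*, *C1galt1c1*), the one with more counts was used. The 7 genes and all lists were chosen with earlier results of these data known.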

Additional observations from a re-analysis of the deposited data

Results flagged for a closer look

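Of 28 sets of 4 labelled KO values examined for one library far from the others (7 shares, 7 levels and 13 ratios, with the sum of the shares), 4 had one. A library counted as far when its gap to the nearest value, divided by the range of the 4, exceeded Dixon's 95% critical value, which marks about 1 in 20 sets by chance. The 28 sets reuse the same counts, so their number cannot be read against that rate. In the level of *Csn3*, labelled KO replicate 4 stood apart at 17703 CPM. In 3 ratios it was labelled KO replicate 1, with *Csn1s1* to *Csn3* at 1.98, *Csn1s2a* to *Csn1s2b* at 398 and *Csn1s2a* to *Csn3* at 6.08. The 3 ratios share genes and are not separate observations. What sets these libraries apart was not tested.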

How the results depend on the processing

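The log2 fold changes of the 7 genes stayed negative under all alternatives run. Their median was -1.10 with TMM, -1.78 when scaled to luminal markers, where the median of all genes was -0.50, and between -1.36 and -0.95 with each library left out. The number of the 7 genes called was 0 in edgeR's quasi-likelihood test under all scalings and filters and with each library left out, and 3 in edgeR's exact test and in DESeq2. Over all genes, 1 was called with no low-count filter, 1 at an adjusted p of 0.05 with no fold limit, 426 in the exact test and 568 in DESeq2. With the replicate number as a block, the median was -1.34 and 0 of the 7 genes were called. Replicate 4 exists only with the KO label, so in that fit it adds nothing to the difference between labels. Without that library and with no block, the median was -1.36. Libraries of the same number across labels correlated in their deviations from the group means with r of 0.454, 0.0736 and -0.0940. The first was the highest of all pairs across labels. Whether libraries share more than a number is not given by the labels, and these r cannot decide it. The difference in the share of the 7 genes lay between -13.3 and -9.20 percentage points with each library left out. The 3 against 4 libraries limit the exact test, whose smallest p is 0.0286.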
